A study of Rattus norvegicus with 6 samples.

Results

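The comparison described here sets H9C2 cells that were transfected with FGFR1 siRNA and then exposed to a high dose of glucose (siFGFR1+HG) against untreated H9C2 cells (Ctrl). It rests on 4 of the study's 6 RNA sequencing libraries, chosen by their titles. The genes described are the 12229 of 32623 in the deposited table that reached 1 FPKM (fragments scaled to transcript length and library size) in at least 2 of the 6 libraries. H9C2 is a permanent line from embryonic rat heart that grows as myoblasts, and all groups were kept in medium with 1 g/L glucose. The 2 Ctrl libraries carry the labels untreated and control genotype. The 2 siFGFR1+HG libraries carry the label FGFR1 knockdown, and their cells were exposed to 33 mM glucose for 8 h after the siRNA. A pair of HG libraries, from cells given that glucose dose with no siRNA named, is quoted beside the results only as values. The labels name no control siRNA, no osmotic control and no siRNA group without added glucose, and are silent on whether Ctrl cells were transfected. The siRNA, the act of transfection and the glucose therefore cannot be told apart in siFGFR1+HG against Ctrl. The labels also do not tie the 2 libraries of a group to separate cultures, so that p-values reflect only how far these libraries spread, and that spread may be technical.

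FGFR1 is a receptor tyrosine kinase. On binding an FGF ligand it phosphorylates the adaptor FRS2 and switches on the RAS-ERK and PI3K-AKT cascades, and ERK in turn is known to raise ETS factors of the PEA3 group, the phosphatase DUSP6 and cyclin D1, which releases E2F factors to drive entry into DNA synthesis. In myoblasts FGF signalling is known to favour division over differentiation. Glucose reaches the nucleus by other routes, among them the MondoA and ChREBP sensors that raise Txnip, and in many cell types it also raises NF-kB targets.

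The 4 libraries held between 46960084 and 75021470 counts each, of which the mitochondrial genome took 4.87% to 5.31%. The median absolute log2 difference over tested genes was 0.0810 between the 2 Ctrl libraries, 0.0908 between the 2 siFGFR1+HG libraries and 0.178 to 0.184 between libraries of different groups. Fgfr1 itself had counts of 0 and 4 in Ctrl and of 4 and 0 in siFGFR1+HG, under a floor of 12 counts, too few to measure a loss of the target or to give a fold. Skeletal myoblast markers were present in all libraries, with 8 of 10 at the level for testing, among them Myog and Cdh15. Myod1, a master regulator of muscle fate, was at 62.9 to 67.4 FPKM. Myf5 was at 0 in all libraries and Chrna1 was under the level for testing. Of 12 fibroblast markers 7 reached the level for testing, among them Col1a1, Col3a1, Postn and Thy1, while Tcf21 and Fap were at 0 and Pdgfra, Dcn and Lum were under that level. Of 8 smooth muscle markers 7 reached it, with a summed level of 3974 to 4162 FPKM in Ctrl and 3438 to 3470 in siFGFR1+HG, most of it Acta2 and Tagln. Of 10 cardiomyocyte markers only Tnnt2 and Nkx2-5 reached the level for testing. None of the 9 endothelial markers in the table did, and of 10 leukocyte markers 2 did, with Ptprc and Tyrobp at 0. The libraries thus held myoblast transcripts together with part of the fibroblast list and most of the smooth muscle list, and few of the genes that define cardiomyocytes.

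In siFGFR1+HG 1201 genes rose and 1522 fell against Ctrl at an adjusted p under 0.05 (edgeR, quasi-likelihood test, adjusted over the 12229 genes by Benjamini-Hochberg), which is 22.3% of the genes tested, 9.82% higher and 12.4% lower. Most of these changes were small. The median change of a called gene was 1.26-fold, and 145 genes (1.19%) were both called and changed at least 2-fold, 52 of them upward and 93 downward. The fall side therefore held more of the large changes. Both siFGFR1+HG libraries lay above both Ctrl libraries in FPKM for 32.9% of tested genes and below both for 30.9%. A lack of overlap between these groups, given for single genes below, is therefore common and adds little to a call. The number of calls rested on all 4 libraries, falling from 2723 to 1490 or 1379 without Ctrl 1 or Ctrl 2 and to 1470 or 1553 when siFGFR1+HG 1 or siFGFR1+HG 2 was left out. In total 1050 calls, 366 higher and 684 lower, held with any 1 of the 6 libraries left out. Calls named below held in all of these fits unless a range of adjusted p is given. The shares of 9.82% higher and 12.4% lower are the background for each list count of siFGFR1+HG against Ctrl below. Values after ± are standard errors of log2 fold changes, with n = 2 libraries per group.

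**Figure D1:**
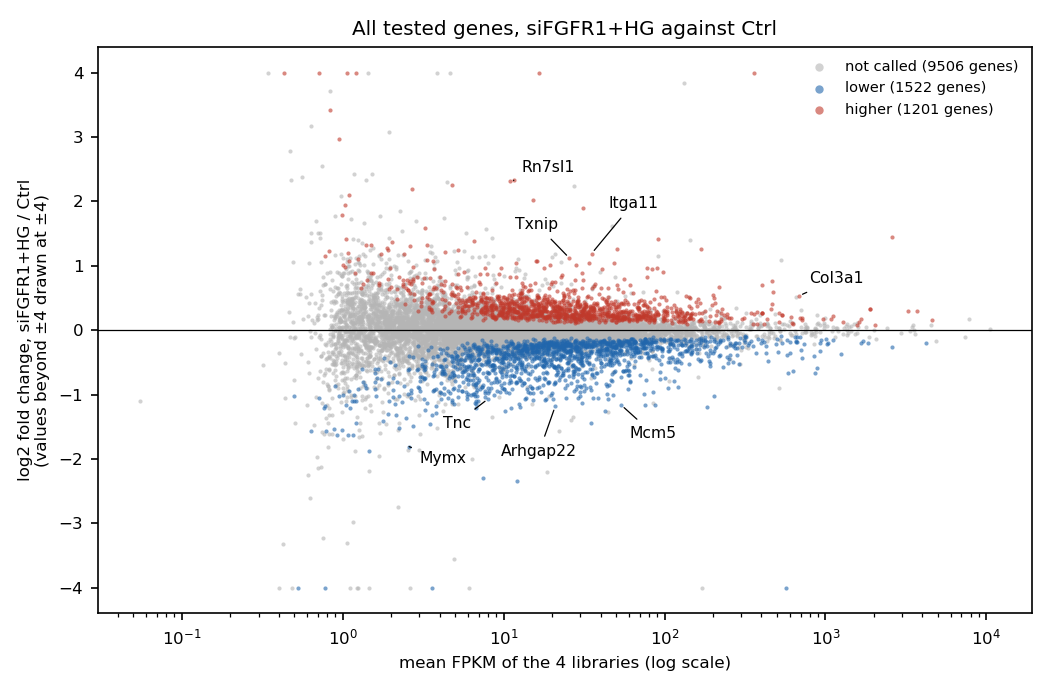
Each point is 1 of the 12229 tested genes, with its mean FPKM over the 2 Ctrl and 2 siFGFR1+HG libraries on a log axis and its log2 fold change, siFGFR1+HG over Ctrl, on the vertical axis; 1201 genes called higher are red, 1522 called lower are blue, and values beyond 4 in size are drawn at the edge. Most called genes lie within a change of 2-fold.

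The machinery that copies DNA fell almost as a whole. Of 51 tested genes of DNA replication, 50 fell and none rose, with a median log2 fold change of -0.81, beside a median of 0.01 over all tested genes and a background of 12.4% lower. The one gene that did not pass was Tipin, part of the fork protection complex, at 19.7 and 20.6 FPKM in Ctrl and 15.9 and 16.6 in siFGFR1+HG (log2 -0.32 ± 0.10, adjusted p = 0.0624). The falls covered each step of the process, from the marking of origins to the supply of nucleotides. Between 46 and 50 of the members were called when a library was left out.

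Mcm5, a subunit of the MCM2-7 helicase that unwinds DNA, was measured at 72.9 and 75.1 FPKM in Ctrl and at 33.9 and 32.6 FPKM in siFGFR1+HG. The groups did not come near each other, and the fall was 2.23-fold (log2 -1.16 ± 0.04, adjusted p = 0.000123). Mcm3, another helicase subunit, stood at 47.9 and 48.8 FPKM in Ctrl and 23.3 and 23.5 in siFGFR1+HG. It fell by 1.05 on the log2 scale (± 0.04, adjusted p = 0.000172). The promoters of these 2 genes are shown because E2F factors are known to control replication genes. The E2F motif searched, TTTNGCGC on either strand, was in 15 of the 41 DNA replication promoters matched in the RefSeq table (36.6%), in 2.52% of the promoters of tested genes and in 1.28% of all promoters of the same length there. Capitals mark that motif and CCAAT, the NF-Y motif, on either strand. Sequences run from 250 bases before to 50 after the start in the RefSeq annotation of build GRCr8, at chr19:13488563-13488862 on the plus strand for Mcm5 and chr9:30733697-30733996 on the minus strand for Mcm3.
Mcm5: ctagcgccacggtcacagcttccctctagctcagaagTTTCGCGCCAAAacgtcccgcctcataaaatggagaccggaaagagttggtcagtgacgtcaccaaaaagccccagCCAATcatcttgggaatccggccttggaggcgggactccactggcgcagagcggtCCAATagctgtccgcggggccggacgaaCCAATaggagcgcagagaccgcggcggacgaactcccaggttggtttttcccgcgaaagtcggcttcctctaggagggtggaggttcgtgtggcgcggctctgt
Mcm3: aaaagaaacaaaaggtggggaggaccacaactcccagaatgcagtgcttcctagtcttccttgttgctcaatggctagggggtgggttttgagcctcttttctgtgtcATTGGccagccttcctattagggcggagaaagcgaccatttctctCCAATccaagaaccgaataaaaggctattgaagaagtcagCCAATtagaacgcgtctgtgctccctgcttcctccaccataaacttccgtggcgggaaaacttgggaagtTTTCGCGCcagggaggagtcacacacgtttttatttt
In Mcm5 a pair of E2F matches on opposite strands overlap, followed by 3 CCAAT matches, while in Mcm3 the E2F match lies after the CCAAT matches, close to the start. CCAAT itself is common, in 56.1% of the replication promoters and 38.7% of those of tested genes. The windows of E2f7, Exo1 and Pclaf, genes described below, hold no match to the E2F motif, while that of Mcm7, another helicase subunit, does. A match describes the letters only and shows no binding.

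Upstream of the helicase, Cdc6, which loads it onto origins, had 15.20 and 15.98 FPKM in Ctrl and 6.68 and 6.90 in siFGFR1+HG. That is a fall of 2.30-fold (log2 -1.20 ± 0.07, adjusted p = 0.000232). Cdt1, its partner in loading, fell by 0.97 and Orc1, of the origin recognition complex, by 1.01 on the log2 scale. Downstream, Pcna, the sliding clamp of the polymerases, went from 153 and 163 FPKM to 86.6 and 85.2 (1.84-fold lower, log2 -0.88 ± 0.05). Rrm2, the regulated subunit of ribonucleotide reductase, went from 141 and 131 FPKM to 74.6 and 72.4 (1.86-fold lower). Both were lower in each siFGFR1+HG library than in any Ctrl library. The smallest falls among the called members were those of Gins2, a helicase cofactor (log2 -0.39 ± 0.08), and Rfc1, the large subunit of the clamp loader (-0.37). Gins2 was no longer called once any 1 of the 4 libraries was left out, with adjusted p from 0.0182 to 0.106 over the leave-one-out fits. Beside these values, the list's median was -0.12 in HG against Ctrl and -0.70 in siFGFR1+HG against HG. Of all tested genes, 13.7% were called in HG against Ctrl (5.81% higher, 7.85% lower) and 29.9% in siFGFR1+HG against HG (14.1% higher, 15.9% lower). The 3 comparisons share libraries, and the log2 fold change of siFGFR1+HG against Ctrl is the sum of the other 2.

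Some of the factors that govern entry into DNA synthesis fell as well. Of 21 genes of the G1 cyclins, CDKs, CDK inhibitors and E2F-pocket protein circuit, 9 fell, 2 rose and 10 did not pass. E2f7, a repressor that E2F activity itself raises, went from 4.85 and 5.45 FPKM to 2.03 and 2.12 (log2 -1.31 ± 0.12, adjusted p = 0.00100). E2f8, its close relative, went from 9.28 and 9.65 FPKM to 4.50 and 3.67. E2f2, an activating E2F, went from 3.43 and 3.72 FPKM to 1.504 and 1.286 (2.57-fold lower, adjusted p = 0.000982). All 3 were among the larger falls of the comparison. The E-type cyclins that fire CDK2 fell, Ccne1 by 0.66 and Ccne2 by 1.10 on the log2 scale. Ccne2 overlaps Ints8 on the other strand, and the sources used here do not give the strandedness of the libraries. The D-type cyclins, which respond to growth factors, split. Ccnd1 fell from 148 and 150 FPKM to 106 and 104 (1.43-fold, log2 -0.51 ± 0.03, adjusted p = 0.000232). Ccnd2 rose from 86.7 and 83.2 FPKM to 118 and 119 (1.39-fold, log2 0.47 ± 0.05, adjusted p = 0.00133). Ccnd3 had 159 and 162 FPKM in Ctrl and 165 and 158 in siFGFR1+HG, with the groups overlapping and a 95% interval of 0.930 to 1.08 for the fold.

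The test did not pass for the main CDK inhibitors. Cdkn1a (p21) had 139 and 142 FPKM in Ctrl and 138 and 134 in siFGFR1+HG, with an interval of 0.909 to 1.02 for the fold (adjusted p = 0.354). Cdkn1b (p27) had 45.1 and 44.3 FPKM against 48.2 and 47.3, with an interval of 0.986 to 1.15 (adjusted p = 0.215). The siFGFR1+HG libraries were the lower pair for the first gene and the higher pair for the second, by margins the test did not pass. Rbl2 (p130), a pocket protein known from quiescent cells, rose 1.23-fold (log2 0.30 ± 0.06), a call lost without Ctrl 2 or either siFGFR1+HG library (adjusted p from 0.0163 to 0.0787). The median of the 21 genes was -0.23 on the log2 scale and moved to -0.13 without Ctrl 2 and to -0.08 without siFGFR1+HG 1.

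Genes of mitosis and cytokinesis fell nearly as widely. Of 44 tested genes of cell division, 42 fell and none rose (median log2 fold change -0.66), and 40 to 41 were called lower when a library was left out. Mki67, the proliferation marker Ki-67, had 63.8 and 63.7 FPKM in Ctrl and 32.0 and 31.7 in siFGFR1+HG. The libraries of a group were nearly equal, and the fall was 2.01-fold (log2 -1.01 ± 0.03, adjusted p = 0.000123). Ccnf, cyclin F, a substrate receptor of an SCF ubiquitin ligase, had 37.4 and 39.4 FPKM in Ctrl and 21.3 and 20.8 in siFGFR1+HG. That is 1.83-fold lower (log2 -0.87 ± 0.04, adjusted p = 0.000220). Promoters of these 2 genes are printed because genes that peak late in the cell cycle are known for the cell cycle homology region, TTTGAA, bound with NF-Y at CCAAT in the DREAM and MuvB system. TTTGAA on either strand was in 27 of 37 cell division promoters (73.0%), against 11.5% of those of tested genes, and CCAAT was in 78.4%. The E2F motif was in 1 of the 37. Capitals mark TTTGAA and CCAAT at chr1:199952544-199952843 on the minus strand for Mki67 and chr10:13783620-13783919 on the minus strand for Ccnf (RefSeq, build GRCr8).
Mki67: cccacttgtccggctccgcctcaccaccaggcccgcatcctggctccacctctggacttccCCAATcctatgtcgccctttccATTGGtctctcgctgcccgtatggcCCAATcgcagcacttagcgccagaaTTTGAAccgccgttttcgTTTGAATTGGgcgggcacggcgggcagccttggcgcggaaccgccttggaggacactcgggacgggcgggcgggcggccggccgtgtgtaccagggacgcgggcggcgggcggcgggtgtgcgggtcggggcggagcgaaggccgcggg
Ccnf: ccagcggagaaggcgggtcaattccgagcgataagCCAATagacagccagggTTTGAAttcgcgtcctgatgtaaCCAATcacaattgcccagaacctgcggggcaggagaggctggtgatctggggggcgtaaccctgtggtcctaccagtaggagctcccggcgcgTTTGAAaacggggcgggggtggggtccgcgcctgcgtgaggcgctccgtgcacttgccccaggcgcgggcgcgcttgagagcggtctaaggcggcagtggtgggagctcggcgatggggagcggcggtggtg
Both hold a pair of TTTGAA matches, one of which in Mki67 shares a base with a CCAAT match on the other strand.

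Among the other members of the list, Ccna2, the cyclin of late S phase and G2, went from 39.3 and 39.8 FPKM to 19.6 and 21.1 (1.95-fold lower). Top2a, which untangles sister chromatids, went from 77.7 and 77.2 FPKM to 39.1 and 43.3 (1.88-fold lower). Cdk1, the kinase that starts mitosis, fell less, from 116 and 114 FPKM to 70.4 and 76.5 (1.57-fold lower, log2 -0.65 ± 0.05). In all 3 genes the lower Ctrl value lay well above the higher siFGFR1+HG value. The transcription factors Mybl2 and Foxm1, which drive this set, fell by 1.01 and 0.73 on the log2 scale. The smallest falls called were those of Kif20a, a cytokinesis kinesin, at -0.39 ± 0.05 and Pttg1, securin, at -0.22 ± 0.06. The call for Pttg1 was lost in every leave-one-out fit (adjusted p from 0.0664 to 0.166). In HG against Ctrl the list had a median of -0.21 with 23 members lower, and in siFGFR1+HG against HG a median of -0.45 with 42 lower. Mki67 itself was at 46.5 and 45.2 FPKM in the HG libraries.

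Repair genes that act on replicating DNA moved with them. Of 31 tested genes of homologous recombination and mismatch repair, 23 fell, none rose and 8 did not pass, with a median log2 fold change of -0.56 (-0.46 by limma on log2(FPKM + 1)). Exo1, an exonuclease of mismatch repair and end resection, went from 16.7 and 18.4 FPKM to 7.17 and 8.26 (2.28-fold lower, log2 -1.19 ± 0.09, adjusted p = 0.000504). Brca1 went from 8.59 and 9.13 FPKM to 4.38 and 4.74 (1.95-fold lower). Each was lower in both siFGFR1+HG libraries. Fanci, of the Fanconi anaemia pathway, fell 1.80-fold. Xrcc3, which acts in recombination, was among those that did not pass, at 4.39 and 4.38 FPKM in Ctrl and 3.78 and 4.90 in siFGFR1+HG. Dscc1, which helps to load the sliding clamp and to hold sister chromatids together, fell 2.39-fold. Pclaf, a PCNA-binding factor, fell from 104 in both Ctrl libraries, to 3 digits, to 47.6 and 45.8 FPKM (2.24-fold). It overlaps Trip4 on the other strand.

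**Figure D2:**
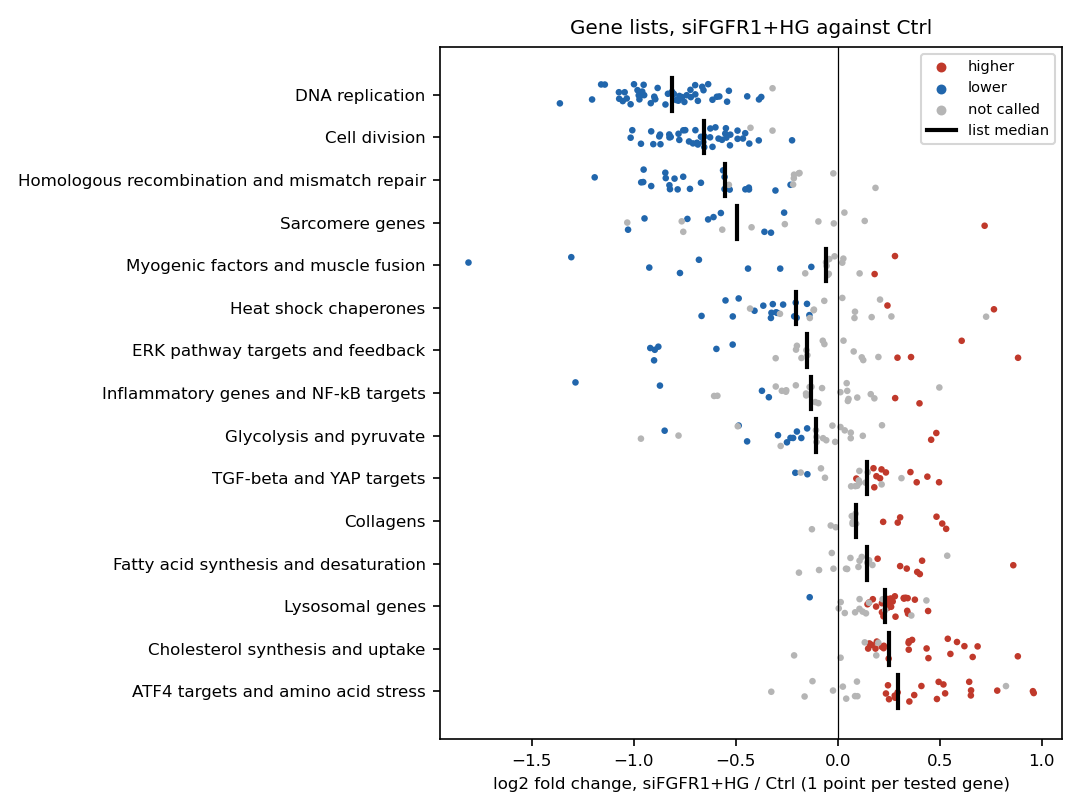
Log2 fold change, siFGFR1+HG over Ctrl, of every tested member of 15 gene lists, 1 point per gene, red where called higher, blue where called lower and grey where not called, with a black bar at each list's median. The DNA replication and cell division lists hold no red point and have medians of -0.81 and -0.66, while the ATF4 list has its median at 0.29 with 19 red points and no blue one.

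Readouts of the ERK pathway did not move in 1 direction. Of 23 tested targets and feedback genes, 6 fell, 4 rose and 13 did not pass (median log2 fold change -0.15). That is 26.1% lower and 17.4% higher, beside 12.4% and 9.82% of all tested genes. Dusp6, the cytoplasmic ERK phosphatase that ERK induces, had 18.8 and 17.8 FPKM in Ctrl and 10.03 and 9.43 in siFGFR1+HG. It fell 1.89-fold (log2 -0.92 ± 0.06, adjusted p = 0.000340). Etv4, an ETS factor of the PEA3 group, had 20.9 and 21.0 FPKM in Ctrl and 11.9 and 10.8 in siFGFR1+HG (1.86-fold lower, adjusted p = 0.000315). Etv5, its relative, went from 11.0 and 9.79 FPKM to 5.69 and 5.46 (1.87-fold lower). In all 3 genes both siFGFR1+HG libraries lay far under both Ctrl libraries, and in HG Etv4 was at 21.7 and 22.1 FPKM, beside its Ctrl level. Fosl1, an AP-1 subunit that sustained ERK activity raises, fell 1.84-fold (log2 -0.88 ± 0.10). Spred2, an inhibitor of RAS signalling, had 11.9 and 11.6 FPKM in Ctrl and 7.81 and 7.76 in siFGFR1+HG (log2 -0.59 ± 0.11), a call lost without Ctrl 1, Ctrl 2 or siFGFR1+HG 1 (adjusted p from 0.0108 to 0.0657). The sixth was Ccnd1, described above.

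The 4 members of the list that rose were Egr1, Fos, Fosl2 and Junb, of which only Egr1 held its call in every leave-one-out fit. Egr1, a zinc finger factor induced within minutes of ERK activation, had 29.5 and 31.0 FPKM in Ctrl and 39.2 and 38.8 in siFGFR1+HG (1.28-fold higher, log2 0.36 ± 0.04, adjusted p = 0.00204). In HG it was lower than in either, at 16.5 and 17.0 FPKM. Fos had 1.06 and 1.11 FPKM in Ctrl and 2.18 and 1.86 in siFGFR1+HG (log2 0.88 ± 0.22), and Fosl2 had 16.4 and 17.3 against 28.8 and 22.9 (log2 0.61 ± 0.13). The call for Fos was lost without any 1 of the 4 libraries (adjusted p from 0.0346 to 0.146), and that for Fosl2 without Ctrl 1, Ctrl 2 or siFGFR1+HG 1 (0.0185 to 0.111). Junb was 1.23-fold higher (log2 0.29 ± 0.06), a call lost without Ctrl 2 or siFGFR1+HG 1 (0.0187 to 0.0742). The count of 4 higher members fell to 2 without Ctrl 1 and to 1 without Ctrl 2 or siFGFR1+HG 1. Dusp1, the nuclear MAP kinase phosphatase, which was not on that list, rose from 28.5 and 26.6 FPKM to 55.0 and 52.4 (1.94-fold, log2 0.96 ± 0.05, adjusted p = 0.000220). It stood at 44.5 and 44.4 FPKM in HG. Klf2, a Kruppel-like factor that ERK5 is known to induce, rose 2.01-fold, from 13.3 and 12.5 to 27.4 and 24.6 FPKM, and was at 12.1 and 10.2 in HG. The Sprouty genes, feedback inhibitors of receptor tyrosine kinases, did not pass the test, with an interval for the fold of 0.913 to 1.29 for Spry2 and 0.816 to 0.998 for Spry4.

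Of 15 tested FGF receptors, ligands and adaptors, 2 rose and 1 fell (median log2 fold change 0.07), beside 22.3% called in either direction over all tested genes. Fgfr1 had too few counts to measure, for reasons not tested, so that the receptors cannot be ranked with it. Among the receptor genes tested Fgfr2 had the higher level, at 7.48 and 8.11 FPKM in Ctrl and 9.54 and 8.95 in siFGFR1+HG. It was called 1.18-fold higher (log2 0.24 ± 0.06, adjusted p = 0.0348), but lost that call in every leave-one-out fit (adjusted p from 0.0545 to 0.174). Fgfr3 had 1.68 and 1.81 FPKM against 1.75 and 2.17, and Fgfr4 was under the level for testing. Frs2, the docking adaptor, was 1.17-fold higher (log2 0.22 ± 0.05), a call lost without any 1 of the 4 libraries (0.0151 to 0.107), which leaves the higher side of this list with no call that held throughout. Sdc1, a heparan sulfate proteoglycan that can bind FGF ligands, fell from 224 and 225 FPKM to 181 and 172 (1.28-fold, log2 -0.35 ± 0.03, adjusted p = 0.000790).

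Part of the muscle genes fell. Of 20 tested sarcomere genes 9 fell, 1 rose and 10 did not pass (median log2 fold change -0.49, from -0.65 to -0.36 with 1 library left out), and DESeq2 called 15 lower. Tnnt2, cardiac troponin T, also made in embryonic skeletal muscle, had 129 and 123 FPKM in Ctrl and 75.7 in both siFGFR1+HG libraries. It fell 1.67-fold (log2 -0.74 ± 0.04, adjusted p = 0.000226), and the HG libraries were at 125 and 127. Myh3, the embryonic myosin heavy chain, went from 9.97 and 8.30 FPKM to 4.35 and 4.64 (2.04-fold lower, adjusted p = 0.00121). Myh4, a fast myosin heavy chain, went from 10.1 and 11.2 to 5.882 and 5.196 (1.93-fold lower). Ctrl and siFGFR1+HG did not overlap in Tnnt2, Myh3 or Myh4. The Myh4 row overlaps in position with Myh8 on the same strand, which had 0 to 98 counts. How reads were assigned between myosin genes was not tested. Acta2, smooth muscle actin, fell 1.20-fold from a far higher level, 2743 and 2897 FPKM in Ctrl and 2356 and 2362 in siFGFR1+HG (log2 -0.26 ± 0.04). The exception was Ldb3, a Z-disc protein, at 2.21 and 1.80 FPKM in Ctrl and 3.55 and 3.08 in siFGFR1+HG (log2 0.72 ± 0.15), with a call lost without Ctrl 2 or siFGFR1+HG 1 (adjusted p from 0.0232 to 0.101). In RNA from a whole culture, fewer cells of a kind and less RNA per cell cannot be told apart, here and for every list in this text.

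Among the myogenic regulators and fusion genes 8 of 20 fell, 2 rose and 10 did not pass. The median was close to 0, at -0.06 on the log2 scale, and ran from -0.12 to -0.04 with 1 library left out. Myog, the factor that commits myoblasts to differentiation, had 25.3 and 27.4 FPKM in Ctrl and 16.1 and 16.9 in siFGFR1+HG (1.60-fold lower, log2 -0.68 ± 0.07, adjusted p = 0.00145). Myod1, which acts before it, had 64.0 and 66.3 FPKM against 62.9 and 63.0, with an interval of 0.901 to 1.03 for the fold. The later of these regulators thus fell while the test did not pass for the earlier one. Mymk, the membrane protein that fuses myoblasts, had 3.65 and 3.35 FPKM in Ctrl and 2.04 and 1.65 in siFGFR1+HG (log2 -0.92 ± 0.18, adjusted p from 0.0216 to 0.0781 over the leave-one-out fits, lost without Ctrl 1, Ctrl 2 or siFGFR1+HG 2). Des, desmin, went from 7.80 and 7.40 FPKM to 4.25 and 4.67 (1.71-fold lower, adjusted p = 0.00493). The count of 8 lower members fell to 4 without Ctrl 1 or Ctrl 2 and to 5 without siFGFR1+HG 1 or 2, and to 5 with a filter at 5 FPKM.

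Inflammatory genes, of which 20 were higher in HG than in Ctrl, had a median near the untreated level in siFGFR1+HG. Of 29 tested inflammatory genes and NF-kB targets, 4 fell, 2 rose and 23 did not pass in siFGFR1+HG against Ctrl, a share of calls near the 22.3% of all tested genes. The median log2 fold change was -0.13, and it ran from -0.17 to -0.06 with 1 library left out. In HG against Ctrl the median was 0.48, and in siFGFR1+HG against HG it was -0.71 with 24 members lower. The intervals that follow are for genes picked after their values were seen. They reflect only the spread of these libraries, which may be technical.

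Nfkbia, the inhibitor that NF-kB itself induces, had 12.01 and 12.32 FPKM in Ctrl, 39.8 and 37.9 with glucose alone and 11.9 and 10.1 in siFGFR1+HG. Its fold over Ctrl had a 95% interval of 0.780 to 1.03 (adjusted p = 0.245). Sod2, mitochondrial superoxide dismutase and a known NF-kB target, had 18.4 and 19.2 FPKM in Ctrl, 39.9 and 41.9 with glucose alone and 20.0 and 18.9 in siFGFR1+HG, with an interval of 0.947 to 1.13. Here the siFGFR1+HG and Ctrl libraries overlapped or nearly touched, and the HG libraries lay far above both. Gbp2, a guanylate-binding protein, had 11.1 and 10.6 FPKM in Ctrl, 28.2 and 27.9 with glucose alone and 10.2 and 10.3 in siFGFR1+HG, with an interval of 0.865 to 1.03. Cxcl1, a neutrophil chemokine, had 5.36 and 3.74 FPKM in Ctrl, 70.4 and 71.3 with glucose alone and 3.76 and 4.50 in siFGFR1+HG, with a wider interval of 0.675 to 1.22. The interval for Nfkb1, a precursor subunit of NF-kB at 16.4 to 17.7 FPKM in the 4 libraries, was 0.915 to 1.11. These intervals leave room for small differences in either direction.

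Of the members called against the untreated cells, Csf1, Il1rl1 and Ccl2 fell and Icam1 rose, while the calls for the cytokine gene Lif (log2 -0.37) and for Cebpb, a C/EBP factor (log2 0.28), were lost in every leave-one-out fit (adjusted p from 0.0723 to 0.221 and from 0.0502 to 0.166). Csf1, the macrophage growth factor, had 53.1 and 56.1 FPKM in Ctrl, 76.9 and 77.3 in HG and 43.4 in both siFGFR1+HG libraries. It was thus under the untreated level (1.26-fold lower, log2 -0.34 ± 0.04, adjusted p = 0.00171). Il1rl1, the interleukin 33 receptor, went from 4.91 and 5.84 FPKM in Ctrl to 2.56 and 1.85 (2.44-fold lower, log2 -1.29 ± 0.17, adjusted p = 0.00394) and was at 6.36 and 5.75 in HG. Ccl2, the monocyte chemokine, had 1.22 and 1.11 FPKM in Ctrl, 43.0 and 42.8 with glucose alone and 0.463 and 0.789 in siFGFR1+HG (log2 -0.87 ± 0.24, adjusted p = 0.0446). At this low level the call against Ctrl was lost in all leave-one-out fits but that without siFGFR1+HG 2 (adjusted p from 0.0121 to 0.180). On the other side, Icam1, an adhesion molecule for leukocytes, had 26.2 and 25.2 FPKM in Ctrl, 54.6 and 54.3 with glucose alone and 35.0 and 33.1 in siFGFR1+HG. It stayed between the other groups, 1.32-fold above Ctrl (log2 0.40 ± 0.04, adjusted p = 0.00162). Not called was Cebpd, a relative of Cebpb known from the acute phase response, which had 2.85 and 3.60 FPKM in Ctrl, 13.5 and 11.1 with glucose alone and 4.17 and 4.98 in siFGFR1+HG, with an interval of 1.03 to 1.94 and an adjusted p of 0.114. The count of 4 lower members fell to 2 without either Ctrl or either HG library, and was 7 by DESeq2. Of 14 genes of antigen presentation, 1 rose and 1 fell, beside 7 higher and none lower in HG against Ctrl.

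**Figure D3:**
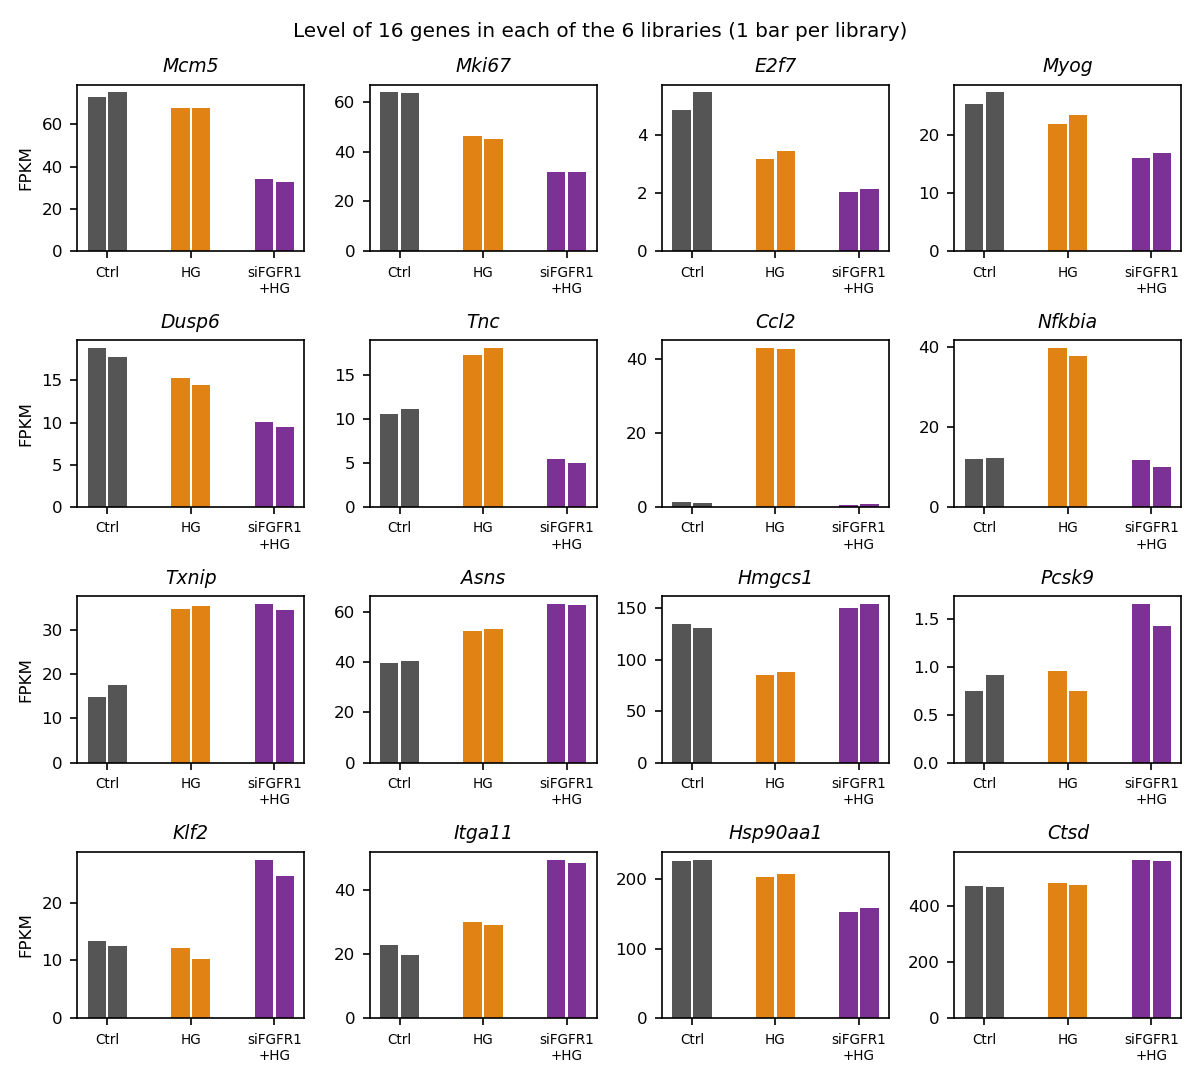
FPKM of 16 genes in each of the 6 libraries, 1 bar per library, with grey for Ctrl, orange for HG and purple for siFGFR1+HG, and vertical axes that start at 0. Mcm5, Mki67, Myog and Dusp6 are lowest in siFGFR1+HG, Ccl2 and Nfkbia stand out only in HG, and Txnip is as high in siFGFR1+HG (35.8 and 34.5 FPKM) as in HG (34.8 and 35.3).

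Because an siRNA was transfected, genes that sense foreign RNA and genes of the interferon response are also given. Of 17 RNA sensors and RNA interference genes 1 rose and 3 fell. The sensors Ifih1 (MDA5; 1.28 and 1.31 FPKM in Ctrl, 1.26 and 1.29 in siFGFR1+HG) and Ddx58 (RIG-I; 2.69 and 2.35 against 3.28 and 2.15) did not pass the test. Of 20 interferon response genes 4 rose, 1 fell and 15 did not pass (median log2 fold change -0.05). Both lists had a share of calls near the 22.3% of all tested genes, of which 9.82% were higher and 12.4% lower. Stat2, which carries the interferon signal to the nucleus, had 20.0 and 19.8 FPKM in Ctrl and 26.3 and 24.1 in siFGFR1+HG (1.26-fold higher). In HG it was at 19.1 and 18.7 FPKM. Irf9, its DNA-binding partner, was 1.43-fold and Ifit2, an antiviral effector, 1.63-fold higher than in Ctrl. The calls for both were lost without any 1 of the 4 libraries (adjusted p from 0.0179 to 0.0854 and from 0.0268 to 0.187), which takes the 4 higher members to 2 in each of those fits. Eif2ak2, the kinase PKR that senses double-stranded RNA and is itself induced by interferon, fell from 41.2 and 42.0 FPKM to 34.1 and 34.3 (1.22-fold, log2 -0.29 ± 0.04).

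Cholesterol synthesis genes rose above the untreated level, by small amounts. Of 27 tested genes of synthesis and uptake 22 rose, none fell and 5 did not pass, with a median log2 fold change of 0.25, beside 9.82% higher over all tested genes. Nsdhl, which removes the C4 methyl groups of sterols, had 35.6 and 33.5 FPKM in Ctrl and 54.6 and 55.1 in siFGFR1+HG. It rose 1.58-fold (log2 0.66 ± 0.04, adjusted p = 0.000372). Fdps, farnesyl diphosphate synthase, had 161 and 163 FPKM in Ctrl and 236 and 237 in siFGFR1+HG (1.45-fold higher, log2 0.54 ± 0.03, adjusted p = 0.000279). The promoters of Nsdhl and Fdps are printed because NF-Y is a known partner of SREBP2, the factor that drives the pathway. CCAAT was in 15 of 19 promoters of the list (78.9%), against 38.7% of those of tested genes and 37.5% of all. The sterol response element TCACNCCAC was in none of the 19 windows and in 1.16% of those of tested genes, which says only that these letters are not there. Capitals mark CCAAT on either strand at chrX:155817110-155817409 on the plus strand for Nsdhl and chr2:176804767-176805066 on the minus strand for Fdps (RefSeq, build GRCr8).
Nsdhl: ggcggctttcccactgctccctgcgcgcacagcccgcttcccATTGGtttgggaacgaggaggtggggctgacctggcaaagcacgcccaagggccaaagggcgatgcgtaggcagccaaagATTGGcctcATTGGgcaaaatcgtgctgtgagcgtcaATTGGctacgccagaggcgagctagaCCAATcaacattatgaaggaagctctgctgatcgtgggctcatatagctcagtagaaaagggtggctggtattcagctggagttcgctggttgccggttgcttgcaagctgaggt
Fdps: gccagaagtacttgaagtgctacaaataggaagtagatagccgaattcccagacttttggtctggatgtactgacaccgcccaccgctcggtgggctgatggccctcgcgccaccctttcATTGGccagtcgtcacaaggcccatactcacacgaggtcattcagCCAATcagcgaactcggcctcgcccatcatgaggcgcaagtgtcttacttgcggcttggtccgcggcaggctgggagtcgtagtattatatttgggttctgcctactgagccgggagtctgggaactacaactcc
Nsdhl holds 5 matches within the window and Fdps holds 2. The window of Cyp51, described next and one of the list's strongest calls, holds none.

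Along the pathway, Lss, lanosterol synthase, rose 1.61-fold, from 28.8 and 27.2 FPKM to 44.9 and 45.6, and Cyp51, the lanosterol demethylase, 1.35-fold, from 134 and 131 to 180 in both libraries. Pmvk, phosphomevalonate kinase, rose 1.54-fold. Other classical SREBP2 targets rose little, with Hmgcs1, which makes HMG-CoA, and Insig1, which holds SREBP back, both 1.14-fold higher. Hmgcs1 lost its call without Ctrl 2 or siFGFR1+HG 2 (adjusted p from 0.0162 to 0.0709), and Insig1 without Ctrl 1, Ctrl 2 or siFGFR1+HG 1 (0.0169 to 0.112). The count of 22 higher members fell to 13 without Ctrl 1, Ctrl 2 or siFGFR1+HG 1. In HG against Ctrl the median was -0.40 with 20 members lower, and in siFGFR1+HG against HG it was 0.70 with 25 higher.

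Lipid genes outside the sterol pathway followed in part. Of 21 genes of fatty acid synthesis and desaturation 7 rose, none fell and 14 did not pass (median 0.14 on the log2 scale, with 11 higher by DESeq2). Acss2, which makes acetyl-CoA from acetate, rose most, from 17.2 and 15.6 FPKM to 31.1 and 28.7 (1.82-fold, log2 0.86 ± 0.08, adjusted p = 0.000831). The desaturases Scd and Scd2 rose 1.33-fold and 1.32-fold, and Acly, ATP citrate lyase, 1.27-fold. Fasn, the fatty acid synthase, had 74.2 and 75.5 FPKM in Ctrl, 50.2 and 50.8 with glucose alone and 73.7 and 73.5 in siFGFR1+HG. Its fold over Ctrl had an interval of 0.939 to 1.02, so that among these genes some exceeded the untreated level and Fasn lay beside it. Of 9 tested genes of cholesterol efflux and LXR targets 5 rose and 1 fell. Abca1, the cholesterol exporter, rose from 1.86 and 1.97 FPKM to 2.99 and 3.05 (1.57-fold, adjusted p = 0.00267), and Soat1, which stores cholesterol as esters, fell 1.33-fold.

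Targets of ATF4, the factor of the integrated stress response, rose. Of 29 tested genes of this list 19 rose, none fell and 10 did not pass (median log2 fold change 0.29), and 17 to 19 were called higher with 1 library left out. Atf4 itself went from 168 and 170 FPKM to 236 and 241 (1.41-fold, log2 0.49 ± 0.03, adjusted p = 0.000344). Asns, asparagine synthetase, had 39.8 and 40.4 FPKM in Ctrl, 52.5 and 53.1 with glucose alone and 63.2 and 62.7 in siFGFR1+HG. That is 1.56-fold above Ctrl (log2 0.64 ± 0.03, adjusted p = 0.000226), with the HG libraries between the other groups. Slc6a9, a glycine transporter, had 6.99 and 6.09 FPKM in Ctrl and 12.5 and 13.1 in siFGFR1+HG (1.95-fold higher). Psph, the last enzyme of serine synthesis, rose 1.72-fold, the pseudokinase Trib3 1.57-fold and Chac1, which breaks down glutathione, 1.57-fold. Ddit3 (CHOP), a factor of prolonged stress, rose 1.33-fold, and it overlaps Mars1 on the other strand. Nupr1, a stress-induced chromatin protein, rose from 57.4 and 55.6 FPKM to 109 and 112 (1.94-fold), and the row with the similar name Nupr1l1 rose 1.96-fold. Counts of Nupr1 and Nupr1l1 were nearly equal in every library, with 2061 and 2011 in Ctrl 1 and 3819 and 3767 in siFGFR1+HG 1. The rise of Nupr1l1 therefore cannot be taken as a separate observation. Whether reads were divided between these rows or counted in both was not tested.

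The aminoacyl-tRNA synthetases, many of them ATF4 targets, went the same way for 11 of 20, while 3 fell and 6 did not pass (median 0.21). Mars1, the methionyl enzyme, had 62.4 and 63.6 FPKM in Ctrl and 86.5 and 87.3 in siFGFR1+HG (1.38-fold higher, adjusted p = 0.000389). Eprs, which charges glutamate and proline, rose 1.30-fold. Aldh1l2, the mitochondrial folate enzyme, which was named by its size of change, went from 8.88 and 6.78 FPKM to 15.7 and 16.7 (2.06-fold). The endoplasmic reticulum chaperones had 7 higher, 2 lower and 20 not called of 29 (median 0.03). Herpud1, of the degradation pathway of that compartment, rose 1.49-fold, and the count of 7 went to 4 without Ctrl 1. In HG against Ctrl the ATF4 list had a median of 0.21 with 15 higher, and in siFGFR1+HG against HG 0.22 with 12 higher and 2 lower.

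Txnip, the thioredoxin-binding protein that glucose raises through MondoA and ChREBP, had 14.8 and 17.5 FPKM in Ctrl, 34.8 and 35.3 with glucose alone and 35.8 and 34.5 in siFGFR1+HG. It was 2.17-fold above Ctrl (log2 1.12 ± 0.08, adjusted p = 0.000372), and the siFGFR1+HG and HG libraries overlapped. Its paralogue Arrdc3, which the same sensors can raise, had 7.76 and 8.83 FPKM in Ctrl, 4.604 and 4.731 with glucose alone and 7.89 and 7.52 in siFGFR1+HG, with an interval of 0.762 to 1.12 over Ctrl. Of the 18 tested genes of glucose sensing, the polyol pathway and the osmotic response 5 rose and 2 fell. That is 27.8% and 11.1%, beside 9.82% and 12.4% of all tested genes. The 5 fell to 3 without Ctrl 1 or siFGFR1+HG 1 and to 2 without Ctrl 2 or siFGFR1+HG 2. Nfat5, the osmotic stress factor, rose 1.23-fold (log2 0.30 ± 0.04, adjusted p = 0.00526), and Akr1b8, an aldose reductase-like enzyme, fell 1.35-fold.

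Glycolysis genes leaned lower, with 10 of 29 lower, 2 higher and 17 not called (median -0.11). That is 34.5% lower and 6.9% higher, beside 12.4% and 9.82% of all tested genes. Eno3, the muscle enolase, fell from 39.7 and 41.9 FPKM to 23.0 and 22.5 (1.80-fold, log2 -0.85 ± 0.05, adjusted p = 0.000283), and Pfkl, a phosphofructokinase, 1.40-fold. The ubiquitous enolase Eno1 fell from 788 and 791 FPKM to 687 and 674 (1.16-fold), and Slc16a1, a lactate transporter, fell 1.36-fold. Of these enolases Eno1 thus fell less than Eno3, while the lowest log2 fold change in the list was -0.96, in another gene. Of 25 genes of fatty acid oxidation 3 rose and 5 fell (12% and 20%, beside 9.82% and 12.4% of all tested genes). Of 50 nuclear genes of oxidative phosphorylation 2 rose, 3 fell and 45 did not pass (median -0.01), and of 73 mitochondrial ribosomal protein genes 1 rose and 8 fell. The shares called in the oxidative phosphorylation and mitochondrial ribosomal lists were under the 22.3% of all tested genes. The 5 lower genes of fatty acid oxidation went to 1 without Ctrl 1 or Ctrl 2 and to 2 without siFGFR1+HG 1 or 2, and the 8 to 3 without Ctrl 1 and to 5 or 4 without siFGFR1+HG 1 or 2.

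Lysosomal genes rose in number but by little. Of 37 tested, 23 rose, 1 fell and 13 did not pass, with a median log2 fold change of 0.23. Ctsd, cathepsin D, had 470 and 464 FPKM against 563 and 560 (1.20-fold higher, log2 0.26 ± 0.02, adjusted p = 0.000831). Lamp1, a membrane protein of the lysosome, had 219 and 229 against 268 and 265. The siFGFR1+HG libraries were above the Ctrl libraries for both genes. The count of 23 fell to 15 without Ctrl 2, siFGFR1+HG 1 or siFGFR1+HG 2. In HG against Ctrl 6 members were higher.

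Chaperones of the cytosol and mitochondria, by contrast, fell. Of 32 tested heat shock chaperones and partners 17 fell, 2 rose and 13 did not pass (median -0.20), and 12 to 17 were called lower with 1 library left out. Hspa8, the constitutive HSP70, had 677 and 760 FPKM in Ctrl and 452 and 456 in siFGFR1+HG (1.59-fold lower, log2 -0.67 ± 0.06, adjusted p = 0.00101). Hsp90aa1, the inducible HSP90, had 226 and 228 FPKM against 152 and 159 (1.46-fold lower), and Hsp90ab1, the constitutive form, 1019 and 1029 against 831 and 818 (1.25-fold lower). All 3 were lower in both siFGFR1+HG libraries than in either Ctrl library. Hspd1, the mitochondrial chaperonin HSP60, fell 1.43-fold. Hspb7, a small heat shock protein of heart and skeletal muscle, was higher, at 3.07 and 3.27 FPKM in Ctrl and 6.06 and 4.77 in siFGFR1+HG (log2 0.77 ± 0.16), with a call lost without Ctrl 1, Ctrl 2 or siFGFR1+HG 1 (adjusted p from 0.0242 to 0.0921).

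Some matrix genes rose, while most of those tested did not pass. Of 15 tested collagens 6 rose, none fell and 9 did not pass (median 0.09). Col3a1, a fibrillar collagen of soft tissue, had 586 and 527 FPKM in Ctrl, 474 and 484 with glucose alone and 814 and 801 in siFGFR1+HG. It was 1.45-fold above Ctrl (log2 0.53 ± 0.05, adjusted p = 0.000909) and shares its strand and position with an unnamed row, so that reads may have been divided. Col1a1 rose 1.23-fold from 3432 and 3231 FPKM to 4127 and 4074, and the minor collagens Col16a1 and Col5a3 rose 1.43-fold and 1.40-fold. Itga11, the alpha chain of a collagen receptor, had 23.0 and 19.8 FPKM in Ctrl and 49.5 and 48.4 in siFGFR1+HG (2.28-fold higher, log2 1.19 ± 0.07, adjusted p = 0.000243). Prrx2, a mesenchymal homeobox factor, went from 10.6 and 9.96 FPKM to 23.3 and 20.3 (2.11-fold, adjusted p = 0.00445). The summed level of 12 fibroblast markers, most of it Col1a1, was 4817 to 5064 FPKM in Ctrl and 5997 to 6032 in siFGFR1+HG, and that of 10 myoblast markers 310 to 326 and 260 to 262. The part of cell composition in these results was not tested.

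Tnc, tenascin C, a glycoprotein of injured and developing tissue, had 10.6 and 11.1 FPKM in Ctrl, 17.3 and 18.0 with glucose alone and 5.41 and 5.01 in siFGFR1+HG. It was below the untreated level (2.09-fold lower, log2 -1.06 ± 0.05, adjusted p = 0.000220). Vcan, the proteoglycan versican, fell 1.33-fold. The glycoproteins Sparc and Thbs1, which are among the most abundant transcripts here, each rose 1.25-fold, Sparc from 1696 and 1675 to 2124 and 2109 FPKM. Of 24 tested glycoproteins and proteoglycans 7 rose (29.2%), 3 fell (12.5%) and 14 did not pass, beside 9.82% higher and 12.4% lower over all tested genes. The 7 went to 3 without Ctrl 1, Ctrl 2 or siFGFR1+HG 1. Of 31 proteases, inhibitors and crosslinkers 11 rose (35.5%), 4 fell (12.9%) and 16 did not pass. The 11 went to 6 without Ctrl 1, 3 without Ctrl 2, 5 and 3 when siFGFR1+HG 1 or 2 was left out, and the 4 to 1 in each of these fits. Mmp28, a secreted metalloproteinase, rose from 3.52 and 3.83 FPKM to 7.18 and 6.40 (1.84-fold, adjusted p = 0.00690).

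Of 26 genes of TGF-beta signalling and YAP targets 11 rose, 2 fell and 13 did not pass (median 0.14). Ccn1 (CYR61), a matricellular target of YAP, had 119 and 121 FPKM in Ctrl and 172 and 168 in siFGFR1+HG (1.41-fold higher, log2 0.50 ± 0.03, adjusted p = 0.000389). Amotl2, a feedback inhibitor of YAP, rose 1.36-fold and the ligand Tgfb2 1.31-fold. Ccn2 (CTGF), a target of both pathways, rose 1.13-fold, from 401 and 416 to 464 and 463 FPKM. Smad3, which carries the TGF-beta signal to the nucleus, rose 1.28-fold. The 11 went to 6 without Ctrl 1 or siFGFR1+HG 1 and to 7 without siFGFR1+HG 2. Amotl2 and Tgfb2 were also higher in HG, at 89.1 and 84.6 and at 49.0 and 49.3 FPKM, while Ccn1 was at 135 and 130.

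**Figure D4:**
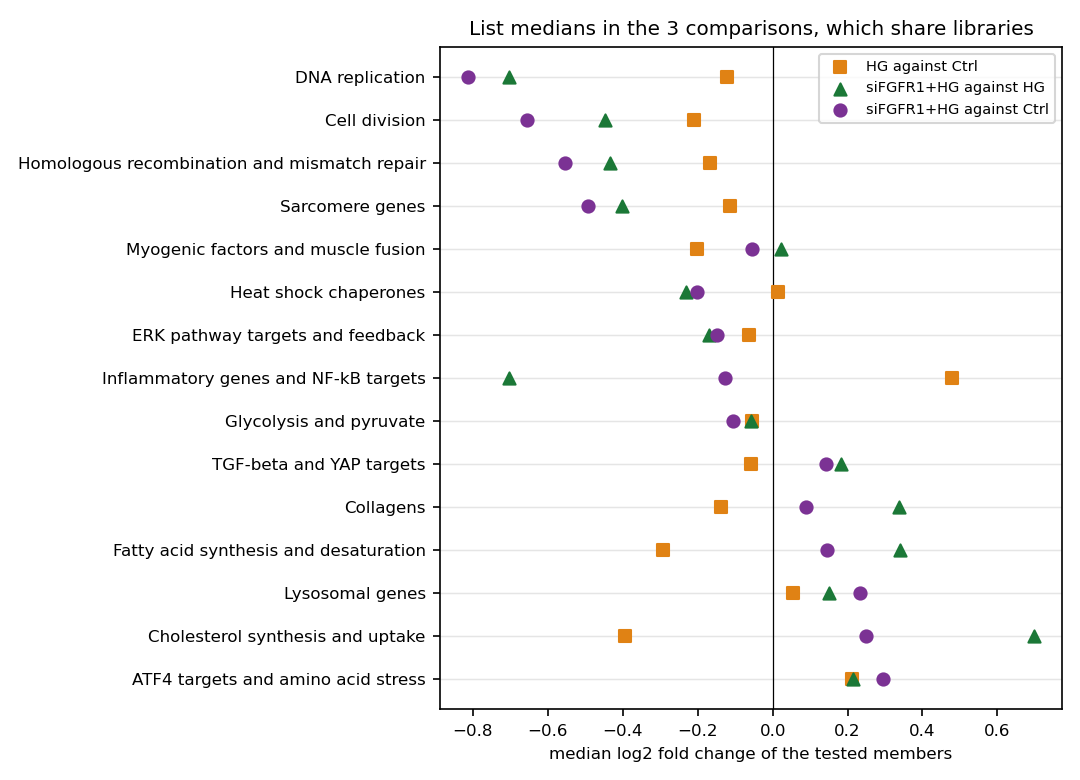
Median log2 fold change of the tested members of 15 gene lists in HG against Ctrl (orange squares), siFGFR1+HG against HG (green triangles) and siFGFR1+HG against Ctrl (purple circles), 3 comparisons that share libraries. The inflammatory list lies at 0.48, -0.71 and -0.13 in these, cholesterol synthesis at -0.40, 0.70 and 0.25, and DNA replication at -0.12, -0.70 and -0.81.

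In lists of cell survival, redox and insulin signalling the calls were few in each direction, at shares near or little above the 22.3% of all tested genes. Over all lists, 45 counts of higher or lower members lay between 1 and 5, and 39 of them changed by more than 1.5 times with 1 of the 4 libraries left out. Of 26 apoptosis regulators 2 rose and 4 fell (median -0.04). Cycs, cytochrome c, fell from 125 and 127 FPKM to 90.5 and 89.9 (1.40-fold), and Fadd, a death receptor adaptor, fell 1.39-fold. Bcl2l11 (BIM), a killer protein that ERK is known to hold down, was at 2.72 and 3.34 FPKM in Ctrl and 4.18 and 4.12 in siFGFR1+HG (log2 0.45 ± 0.12), a call lost in all leave-one-out fits but that without Ctrl 2 (adjusted p from 0.0331 to 0.170). Of 25 p53 targets 2 rose and 5 fell, among them Mdm2, the ligase that degrades p53, 1.28-fold lower. The 4 apoptosis genes went to 2 without Ctrl 2 or either siFGFR1+HG library, and the 5 p53 targets to 2 without Ctrl 1 and 1 without each of the other 3. Of 37 NRF2, glutathione and redox genes 6 rose and 4 fell (median -0.002). Gss, glutathione synthetase, rose from 25.4 and 26.1 FPKM to 33.9 and 34.1 (1.32-fold), beside 34.8 and 35.2 in HG.

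In the insulin and IGF list, 2 of 24 rose and 4 fell. Igfbp5, an IGF-binding protein linked to muscle differentiation, fell from 36.5 and 29.6 FPKM to 21.7 and 21.1 (1.55-fold, log2 -0.63 ± 0.09), and Igfbp4 fell 1.37-fold. Igfbp7, a secreted relative, rose 1.39-fold from 59.0 and 60.2 to 81.5 and 84.6 FPKM, overlaps Polr2b on the other strand and was at 81.3 and 82.8 in HG. Irs2, the insulin receptor substrate, rose 1.26-fold. Of 19 cardiac factors, hypertrophy and calcium handling genes 6 rose and 2 fell. That is 31.6% and 10.5%, beside 9.82% and 12.4% of all tested genes. Npr3, the natriuretic peptide clearance receptor, rose from 16.1 and 15.3 FPKM to 24.6 and 28.1 (1.67-fold, adjusted p = 0.00253), and Gja1, connexin 43, fell 1.21-fold. The 6 went to 2 without Ctrl 1 or siFGFR1+HG 1 and to 3 without Ctrl 2 or siFGFR1+HG 2. Hypoxia genes had 3 of 20 higher, proteasome subunits 1 higher and 5 lower of 34, and mitochondrial genome transcripts 1 lower of 13. In each of these lists the share called was under the 22.3% of all tested genes.

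Several of the largest changes fell outside these groups. Rn7sl1, the RNA part of the particle that guides secretory proteins to the membrane, rose most among genes named by the size of change, from 4.40 and 3.19 FPKM to 22.8 and 15.8 (5.02-fold, 95% interval 3.15 to 8.00, adjusted p = 0.00247). It is a short structural RNA with many near copies in the genome, so that its level depends on how reads were assigned. Acad11, an acyl-CoA dehydrogenase, went from 2.62 and 2.58 FPKM to 6.26 and 5.83 (2.31-fold). Slc12a7, a potassium chloride cotransporter, went from 11.8 and 12.3 FPKM to 24.4 and 23.1 (1.96-fold, log2 0.97 ± 0.05, adjusted p = 0.000220), with 18.6 and 17.7 in HG. In each of these the siFGFR1+HG libraries lay above both Ctrl libraries, which the naming rule required and which adds nothing to the call. Arhgap22, a GTPase-activating protein for RAC, fell from 29.4 and 28.7 FPKM to 12.9 and 12.8 (2.27-fold, log2 -1.18 ± 0.05, adjusted p = 0.000192), with 24.8 and 23.0 in HG. B4galt6, a lactosylceramide synthase, fell 2.25-fold.

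A pair of further falls concern a gene near 0 outside Ctrl and a gene that varied between libraries. Hiatl3 had 1123 and 1514 counts in Ctrl, 0 in both HG libraries and 0 and 11 in siFGFR1+HG. It was at least 79.0-fold lower than in Ctrl, set against a floor of 12 counts per library, and no function is given for it here. Fau, a ubiquitin-like ribosomal protein fusion, had 260 and 251 FPKM in Ctrl, 106 and 211 with glucose alone and 96.4 and 128 in siFGFR1+HG. The HG libraries differed widely from each other, and the call was lost without any 1 of the 4 libraries of the comparison (adjusted p from 0.00400 to 0.168) and by limma. Fau overlaps another gene on the other strand. Of the 69 cytosolic ribosomal protein genes tested, Fau included, 5 rose and 5 fell, and the median was 0.03 on the log2 scale. That share of calls was under the 22.3% of all tested genes. Of the 5 that fell none was called lower without Ctrl 2 or siFGFR1+HG 1, and 1 without Ctrl 1 or siFGFR1+HG 2.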

How the data were processed

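RNA was sequenced from 6 libraries of rat H9C2 cells, 2 per group, and 4 of them form the comparison. Total RNA was taken with TRIzol, per the labels' protocols. The submitters' processing notes name fastp, HISAT2 and StringTie, without versions, and the human build GRCh38, although all 32623 gene identifiers are rat ones; the build is unsure and no coordinates of the table are printed. The counts per gene were deposited by the authors without scaling between libraries. The FPKM values were also deposited by the authors, scaled to gene length and library size, and 0.0001 stands for a count of 0. Library strandedness is not given in the sources used here.

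Genes at 1 FPKM or more in at least 2 libraries were tested in edgeR 4.0.16 (R 4.3.3) on the deposited counts, with TMM scaling (factors 0.994 to 1.01), 1 mean per group over all 6 libraries, the quasi-likelihood test and Benjamini-Hochberg adjustment at 0.05 over 12229 genes. This left 3 residual degrees of freedom and a median standard error of 0.0870 on the log2 scale. Standard errors were worked back from the F statistic, and intervals are 95%. Small counts pile up at multiples of 4, so the floor was set at 12 counts (3 fragments at an assumed 4 counts each), for counting error only. A smaller number of counts per fragment would lower it.

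The members, the 45 gene lists and the naming rule were chosen with earlier results of these data known, and lists are described by counts and medians with no set test. The rule names the 12 largest rises and the 12 largest falls that were called, reached 5 FPKM on average in Ctrl or siFGFR1+HG, did not overlap between these groups and had a unique symbol that is no clone name, plus the 3 members of each list with the smallest p and Fgfr1 to Fgfr4. Some genes are not reported here, and genes outside the rule were chosen after their values were seen. Promoters were matched by symbol to the RefSeq table of GRCr8 (7903 of 11557 symbols of tested genes).

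The labels give no pairing by replicate number. Deviations of same-numbered libraries were nearly uncorrelated between groups (0.0595, 0.0514 and -0.0896), which cannot exclude a shared culture or batch. Alternatives were RLE scaling, DESeq2 1.42.0, limma 3.58.1 on log2(FPKM + 1) and log2(FPKM + 0.1), other filters, only the 4 libraries, a replicate block, counts divided by 4, a test against 1.5-fold, and leaving out each library.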

Additional observations from a re-analysis of the deposited data

How the results depend on the processing

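The count of 2723 called genes was 2727 with RLE scaling, 3500 by DESeq2, 2400 and 2399 by limma with pseudocounts of 1 and 0.1, 2602 with no FPKM filter, 2703 with a filter at 5 FPKM, 2573 with only the 4 libraries and 2760 with counts divided by 4. With the replicate block it was 2323, 987 higher and 1336 lower, though the labels do not say that equal replicate numbers mark a shared culture or batch. Leaving out 1 library gave 1379 to 2586 called genes, 543 to 1130 higher and 836 to 1456 lower. Tested against a change of 1.5-fold, 96 genes were called, 16 higher and 80 lower, so that 16.7% of calls were higher, against 44.1% without that limit. In that test 24 DNA replication genes, 9 cell division genes, 2 ATF4 targets and none of the lysosomal or cholesterol genes were called. The 145 genes called at 2-fold or more became 64 by limma with a pseudocount of 1, which shrinks the folds of low genes, 76 with a filter at 5 FPKM, which tests fewer genes, 44 tested against 1.5-fold and 126 to 151 with 1 library left out. Of 136 called genes covered by the naming rule, 110 kept their call in every setting but the 1.5-fold test, and none changed direction in any. No setting moved the median of all genes by more than 0.0056 on the log2 scale. Calls for low genes are limited by depth. Why Fgfr1 had so few counts, at 0 to 4 per library, was not tested.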
